A study of Mus musculus with 369 samples.

Results

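Cycling unselected microglia are the cells of the unselected gate whose RNA held Mki67 and Top2a above a set level. Mki67 encodes Ki-67, the coat protein of mitotic chromosomes, and Top2a encodes the topoisomerase that untangles replicated DNA, and both are transcribed in dividing cells. Cells were chosen by these 2 measured values: a cell was called cycling when its Mki67 and Top2a levels added up to 20 CPM or more, and non-cycling below that. CPM is a gene's count scaled to a fixed total of gene counts per cell. Of the 334 cells of the series that met the quality criteria in the labels, 168 were unselected microglia, and 58 unselected cells were cycling against 110 non-cycling. The 2 genes chose the classes, so their levels are given as a description only and both were left out of every count below.

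The cells were microglia, the resident macrophages of the brain, dissociated from the whole brain of male mice at postnatal day 7. Each unselected group was sorted as CD45lowCD11b+, a gate written CD45lowCD11+ in the labels, without further markers. The wild-type group was of strain C57BL6J and the knockout group was labelled TREM2_KO on the C57BL/6J background. Trem2 is a lipid-binding receptor of microglia. Which part of the gene was deleted is not stated in the labels, and RNA counts of the gene check the genotype only in part. Each group came from 1 plate of single cells, and no label names an animal. Plate, animal and genotype therefore cannot be told apart, a group is 1 sample, no p-value was computed, and cells are not replicates of a genotype. The other plates of the series were sorted for surface Gpnmb and Clec7a as well, and are called gated here. Libraries were made with Smart-seq2, a full-length method for single cells in plates that adds no molecular identifiers.

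A dividing cell copies its DNA in S phase and separates the copies in mitosis. Cyclins switch on cyclin-dependent kinases (CDKs) in turn, with D-type and E-type cyclins at entry, Ccna2 during replication and mitotic entry, and the B-type cyclins in mitosis. E2F factors drive the genes of replication, and the MuvB complex with B-Myb and Foxm1 drives the genes of mitosis. In mice microglia colonise the brain before birth and multiply in the first weeks after it, with the CSF1 receptor needed for their survival.

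Promoters of the genes that stood highest in the cycling cells are shown because mitotic genes are known to share 2 short elements. TTTGAA is the core of the cell cycle homology region, which the MuvB complex binds, and CCAAT is bound by NF-Y. The 4 windows below are the 130 bases before the RefSeq gene start on the GRCm38.p6 assembly, 5′ to 3′ along the gene, with capitals marking TTTGAA and CCAAT on either strand (TTCAAA and ATTGG are the same elements read on the other strand). They belong to Ccnf (chr17:24251410-24251539, minus strand), Kif11 (chr19:37376252-37376381, plus strand), Cdc20 (chr4:118437344-118437473, minus strand) and Ccnb1 (chr13:100786487-100786616, minus strand).
Ccnf: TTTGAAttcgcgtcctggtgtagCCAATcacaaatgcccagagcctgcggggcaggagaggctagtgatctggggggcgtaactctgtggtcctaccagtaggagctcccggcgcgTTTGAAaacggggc
Kif11: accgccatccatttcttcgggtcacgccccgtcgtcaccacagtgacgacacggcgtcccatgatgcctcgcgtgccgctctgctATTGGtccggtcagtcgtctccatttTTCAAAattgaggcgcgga
Cdc20: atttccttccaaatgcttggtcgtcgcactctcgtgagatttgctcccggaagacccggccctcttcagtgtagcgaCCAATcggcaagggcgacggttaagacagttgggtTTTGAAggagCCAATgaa
Ccnb1: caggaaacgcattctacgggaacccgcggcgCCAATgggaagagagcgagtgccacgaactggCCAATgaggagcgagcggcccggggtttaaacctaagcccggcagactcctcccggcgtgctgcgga
Of the 15 genes that stood highest 10 had a single window, and 3 of these 10 held TTTGAA within the 130 bases and 7 held CCAAT, while Nuf2, Neil3 and Casc5 held neither. The 4 shown were picked to display the elements. Ccnf, Kif11 and Cdc20 are the 3 that hold both, with TTTGAA starting 14, 19 and 18 bases before the gene start, and Ccnf holds another TTTGAA at 130 bases. Ccnb1 has 2 CCAAT elements and no TTTGAA in this window. The shares of all promoters with each element are given after the gene results.

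In the wild-type plate 25 of 78 passing cells were cycling, a share of 32.1% (exact 95% interval 21.9% to 43.6%). In the knockout plate 33 of 90 were cycling, a share of 36.7% (26.8% to 47.5%). These Clopper-Pearson intervals overlap and cover counting error only, and the difference between plates was not tested. After every cell was thinned to 100000 gene counts, the numbers were 25 and 32. Of the cycling cells, 20 wild-type and 24 knockout cells held counts of both genes, 4 and 6 held Mki67 alone, and 1 and 3 held Top2a alone.

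The lowest, median and highest summed levels of Mki67 and Top2a in wild-type cycling cells were 52.9, 369.2 and 3856 CPM. In knockout cycling cells they were 23.8, 825 and 6752 CPM. Of the non-cycling cells, 40 of 53 wild-type and 51 of 57 knockout cells were at 0 for both genes, and the highest reached 13.8 and 14.1 CPM. Few cells lay near the boundary, with 3 wild-type cells and 1 knockout cell between 10 and 20 CPM, and 0 and 4 between 20 and 40 CPM.

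**Figure D1:**
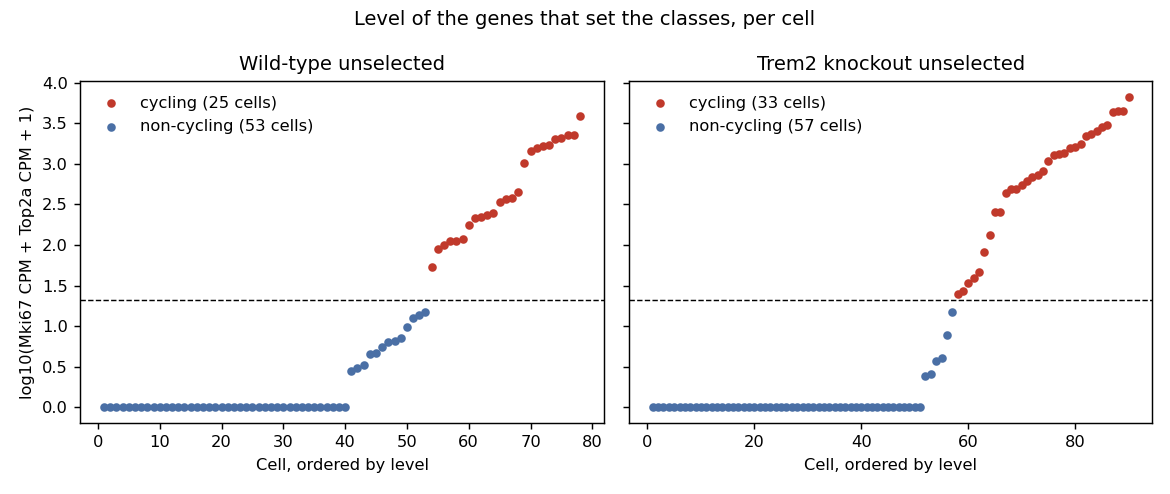
Summed level of Mki67 and Top2a per cell, as log10(CPM + 1), with the cells of each unselected plate ordered by level and the 20 CPM boundary as a dashed line. Of the non-cycling cells, 40 wild-type and 51 knockout cells lie at 0, and the cycling cells spread from 52.9 CPM (wild type) or 23.8 CPM (knockout) upward.

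Depth was alike in both classes. The median total was 485747 gene counts in wild-type cycling and 495882 in non-cycling cells, and 658107 and 642546 in the knockout. The median number of detected genes was higher in cycling cells, at 3696 against 2324 in the wild type (1.59 times) and 2816 against 1968 in the knockout (1.43 times). Thinned to 100000 gene counts it was 2801 against 2013 and 2467 against 1784. Gene counts per spike-in count, a measure of RNA per well, had medians of 24.98 against 24.05 in the wild type and 18.99 against 17.03 in the knockout. Cycling cells thus held more kinds of RNA at the same depth, and the part of this in each gene difference below was not tested beyond the matched comparison in the closing section. Wells with more than 1 cell were not searched for. Of the cells with over 2 times their plate's median of detected genes, 7 were cycling and 4 non-cycling in the wild type, and 5 and 0 in the knockout.

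Differences below are log2 ratios of cycling over non-cycling levels after 1 CPM was added to each, where a level is the summed counts of a class in CPM. The added 1 CPM understates differences of genes at low levels. A gene was measured at 5 CPM or more over all passing cells of each unselected plate, and 8239 genes were. It is called higher or lower when it lay 2-fold or more apart in the same direction in both plates. This describes size alone, and no test stands behind it. By this rule 550 genes (6.68% of the measured) were higher in cycling cells and 482 (5.85%) were lower.

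Within each plate alone the numbers were far larger. In the wild type 1665 genes (20.2%) were 2-fold or more higher and 1753 (21.3%) lower, and in the knockout 1523 (18.5%) were higher and 1517 (18.4%) lower. Of the genes higher in the wild-type plate 33.03% were also higher in the knockout plate, which is 36.1% of those higher in the knockout, while 20.9% of the wild-type genes were 2-fold or more lower there. Across the measured genes the log2 values of the plates had a Pearson correlation of 0.21 and a Spearman correlation of 0.12, over genes of 1 plate each and with no p-value. Of the genes called higher 89 had a log2 of 4 or more in both plates, against 7 of those called lower at -4 or less. Cell cycle lists held 59 of those 89, and 157 of all 550, from 271 measured members of 13 lists. These lists and the classes were chosen with results of these data known, so the counts describe the cells and support nothing about the lists.

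**Figure D2:**
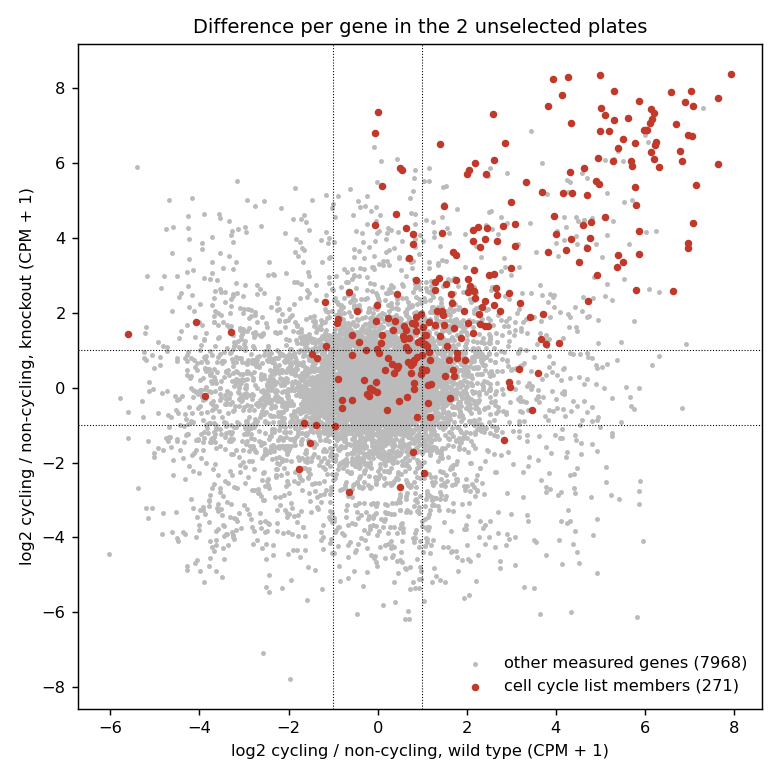
Each point is a measured gene, with its log2 ratio of cycling over non-cycling level in the wild-type plate (x axis) and in the knockout plate (y axis), and dotted lines at 2-fold. Of the 271 cell cycle list members (red) 157 lie in the upper right, where both plates are past 2-fold, and others lie near 0, while the other 7968 genes spread around 0 in all directions.

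The genes that stood highest in both plates were Ccna2, Ccnf, Plk1, Ccnb1, Kif11, Nuf2, Cdca2, Hmmr, Rrm2, Cdc20, Spc24, Neil3, Pbk, Casc5 and Tpx2. They were chosen for size in both plates, for counts in at least 25% of the cycling cells after thinning and for no single cell holding over 50% of the counts. Their log2 values ran from 6.14 to 7.95 in the wild type and from 6.32 to 8.38 in the knockout. After thinning, between 40% and 72% of wild-type cycling cells and between 33.3% and 57.6% of knockout cycling cells held a count of each. In non-cycling cells these shares ran from 0% to 16.98% and from 0% to 5.26%.

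Cyclins and CDKs are described first. Of 21 members of the list of cyclins, CDKs and their activators 19 were measured, and 13 were higher and 1 lower in both plates, against 6.68% and 5.85% of all measured genes. The median log2 of the measured members was 2.26 in the wild type and 4.18 in the knockout, beside -0.01 and 0.02 over all genes.

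Ccna2, the cyclin of S phase and mitotic entry, had a lowest, median and highest level per cell of 0, 91.9 and 2807 CPM in wild-type cycling cells and 0, 33.2 and 3635 CPM in knockout cycling cells. No non-cycling cell exceeded 10.0 CPM in the wild type or 5.34 CPM in the knockout, so the classes overlapped only at the bottom of the cycling range. Summed over cells, Ccna2 was at 386 CPM (95% Poisson interval 376 to 397) against 0.571 (0.320 to 0.942) in the wild type and at 491 (482 to 501) against 0.476 (0.277 to 0.762) in the knockout. The log2 differences were 7.95 and 8.38, and the smaller of them was the largest such value of all called genes. Thinned cells with a count numbered 18 of 25 and 19 of 33 among cycling cells, against 3 of 53 and 0 of 57 among the others. Before thinning, 9.43% of wild-type and 10.5% of knockout non-cycling cells held a count.

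Ccnb1 and Ccnb2, the cyclins that carry CDK1 through mitosis, also stood far apart between classes. Ccnb1 per cell had a median of 47.3 CPM and a highest of 1839 CPM in wild-type cycling cells, and a median of 0 and a highest of 1539 CPM in knockout cycling cells. Its highest non-cycling values were 11.7 and 1.61 CPM, and its log2 was 7.03 and 7.93. Ccnb2 lay at 159 against 0.114 CPM in the wild type (log2 7.16) and at 437 against 9.26 CPM in the knockout (log2 5.42), where 97.9% of the non-cycling counts came from 1 cell. Ccnf, a cyclin that serves as the substrate receptor of an SCF ubiquitin ligase, had a median of 26.9 and a highest of 1214 CPM in wild-type cycling cells, and 0 and 1337 CPM in the knockout. Its summed levels were 268 against 0.343 CPM and 221 against 0.028 CPM, with log2 values of 7.65 and 7.76.

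Kinases and adaptors around CDK1 followed. Cdk1 itself, the mitotic kinase, was at 270 against 9.25 CPM in the wild type (log2 4.72) and 287 against 56.7 CPM in the knockout (log2 2.32). Its per-cell medians were 47.7 and 18.5 CPM in cycling cells and 0 in both non-cycling classes, but single non-cycling cells reached 171 and 551 CPM, so the classes overlapped. Cks1b, a small CDK-binding adaptor, had log2 values of 2.26 and 4.29. Cdc25c, a phosphatase that activates CDK1, had 5.88 and 4.18, and in the knockout it was found in 4 of 33 thinned cycling cells.

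The cyclins of cell cycle entry showed a different picture. Ccne1, the E-type cyclin that starts S phase, was 2-fold or more higher in both plates, at 61.6 against 13.97 CPM and 55.5 against 0 CPM. In the knockout this rested on 3 of 33 cycling cells, and against a floor of 3 counts over the non-cycling class the level was at least 661-fold higher. Ccne2 passed only in the knockout plate (log2 0.42 and 4.65). Ccnd1, the D-type cyclin that answers growth factor signals, lay at 131 against 94.6 CPM (log2 0.47) and 170 against 114 CPM (log2 0.57), with per-cell ranges of 0 to 862 CPM in cycling and 0 to 828 CPM in non-cycling wild-type cells. Its wild-type classes overlapped over nearly their whole range, and neither plate passed 2-fold. Thinned cells with a Ccnd1 count numbered 12 of 25 cycling against 13 of 53 non-cycling in the wild type. In the knockout they numbered 15 of 33 against 19 of 57. Ccnd2 had no count in any wild-type cell (exact 95% intervals up to 13.7% of cycling and 6.72% of non-cycling cells with a count, which do not limit the cells that express it), and in the knockout it had counts in 1 cycling cell. Cdk6, a partner of D-type cyclins, was the member called lower, at 4.33 against 17.1 CPM and 5.86 against 29.7 CPM, and thinned cells with a count were few in every class (between 9.09% and 13.2%).

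Among the DNA replication genes fewer members stood apart than among the genes of mitosis, in classes cut on Mki67 and Top2a. Of 20 measured members of origin licensing and firing 8 were higher in both plates and none lower, with median log2 values of 0.91 and 1.58. Of 27 measured members of the replication fork and the polymerases 8 were higher and none lower, with medians of 1.09 and 1.17. Of 19 members of nucleotide supply 8 were higher, with medians of 1.00 in both plates. Among all measured genes 6.68% were higher and 5.85% lower.

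Rrm2, the regulated subunit of ribonucleotide reductase that makes deoxynucleotides, had a median of 52.3 and a highest of 1344 CPM in wild-type cycling cells, and 33.4 and 3081 CPM in the knockout. In non-cycling cells its medians were 0 and its highest values 61.2 and 41.3 CPM. The summed levels were 385 against 3.01 CPM (log2 6.59) and 457 against 0.923 CPM (log2 7.89). Tk1, which salvages thymidine, had log2 values of 3.09 and 3.78.

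Pcna, the sliding clamp of the replication fork, differed far less. Its lowest, median and highest levels were 0, 24.1 and 552 CPM in wild-type cycling cells, and 0, 0 and 409 CPM in non-cycling cells. In the knockout they were 0, 0 and 667 CPM against 0, 0 and 551 CPM. Both classes thus spanned nearly the same range, and the log2 of 1.03 and 1.17 lay just past 2-fold. Thinned non-cycling cells with a Pcna count numbered 20 of 53 in the wild type and 11 of 57 in the knockout, against 16 of 25 and 14 of 33 cycling cells.

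The MCM helicase, which unwinds DNA at origins, gave mixed values. Mcm5 was at 399 against 179 CPM (log2 1.15) and 219 against 64.1 CPM (log2 1.76), while Mcm6 was at 260 against 268 CPM (log2 -0.04) and 194 against 174 CPM (log2 0.15). Mcm6 thus lay at nearly the same summed level in both classes, while Mcm5 passed 2-fold in both plates. By detection Mcm6 did differ, with counts in 19 of 25 thinned cycling against 21 of 53 non-cycling wild-type cells. In the knockout it was 10 of 33 against 11 of 57. For Mcm5 the numbers were 17 of 25 against 15 of 53, and 12 of 33 against 8 of 57. At this depth the median number of detected genes of any kind was 1.39 and 1.38 times higher in cycling cells. The part of that in these numbers was not tested. Origin-firing kinase genes stood further apart. Cdc7 had log2 values of 2.43 and 5.72 and its activator Dbf4 4.23 and 3.67, each in 7 thinned cycling cells per plate. Fen1, the flap nuclease of the lagging strand, had 2.41 and 1.65.

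Among the DNA repair genes, of 18 measured members 11 were higher and 1 lower, against 6.68% and 5.85% of all measured genes. The list medians were 1.47 and 3.88. Neil3, a glycosylase of damaged bases, was at 145 against 0.952 CPM (log2 6.23) and 107 against 0.196 CPM (log2 6.49). Pbk, a kinase active in mitosis that this list holds, was at 201 against 1.75 CPM and 184 against 0.14 CPM (log2 6.20 and 7.34). Esco2, which acetylates cohesin in S phase, had 6.20 and 6.12.

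The genes of the mitotic machinery stood furthest apart as groups, between classes that were cut on Mki67 and Top2a. Genes whose RNA goes with these 2 stand apart by that choice, so the order of the lists is no independent result. Of 44 measured members of the spindle, mitotic kinase and cytokinesis list 39 were higher and none lower in both plates, with medians of 4.84 and 6.08. Of 30 measured members of the centromere, kinetochore and spindle checkpoint list 26 were higher and none lower, with medians of 4.78 and 5.08. For the mitotic ubiquitin ligases it was 8 of 13, with medians of 1.76 and 2.73. These counts stand beside 6.68% higher and 5.85% lower of all measured genes.

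Plk1, the Polo kinase of mitotic entry and exit, had lowest, median and highest levels of 0, 25.6 and 985 CPM in wild-type cycling cells and 0, 1.41 and 1239 CPM in knockout cycling cells. The highest non-cycling cells reached 7.17 and 3.21 CPM. The classes overlapped at the low end, where many cycling cells held none, and the knockout cycling median lay under the highest non-cycling cell. After thinning 13 of 25 and 16 of 33 cycling cells held a count, against 1 of 53 and 0 of 57. Summed levels were 177 against 0.305 CPM (log2 7.09) and 209 against 0.14 CPM (log2 7.53). Aurkb, the kinase of the chromosomal passenger complex, had log2 values of 4.34 and 7.09, with 96.8% of the wild-type non-cycling counts in 1 cell.

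Kif11, the motor that pushes spindle poles apart, was at 186 against 0.571 CPM (log2 6.90) and 254 against 0.28 CPM (log2 7.64). Tpx2, which nucleates spindle microtubules, was at 134 against 0.914 CPM (log2 6.14) and 202 against 0.168 CPM (log2 7.44). Hmmr, a spindle-associated hyaluronan-binding protein, was at 104 CPM in wild-type cycling cells and had no count in 53 non-cycling cells, at least 908-fold higher against the floor of 3 counts over the class. In the knockout it was at 138 against 0.056 CPM (log2 7.04). Cdca2, which brings a phosphatase to chromatin at mitotic exit, had 7.07 and 6.73, and 96.2% of its knockout non-cycling counts lay in 1 cell.

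At the kinetochore, where microtubules hold chromosomes, Nuf2 and Spc24 of the NDC80 complex had log2 values of 6.97 and 6.77, and of 6.25 and 6.57. Casc5, the scaffold that recruits checkpoint proteins, was at 94.6 against 0.343 CPM in the wild type and at 145 CPM against no count in knockout non-cycling cells, at least 1725-fold higher against the floor. Cdc20, which activates the anaphase-promoting complex, was at 123 against 0.114 CPM (log2 6.80) and 549 against 5.90 CPM (log2 6.32). A single knockout non-cycling cell held 250 CPM of Cdc20, or 91.9% of the non-cycling counts there. The median cycling cells held 21.1 and 4.20 CPM, and that non-cycling cell lay far above both.

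**Figure D3:**
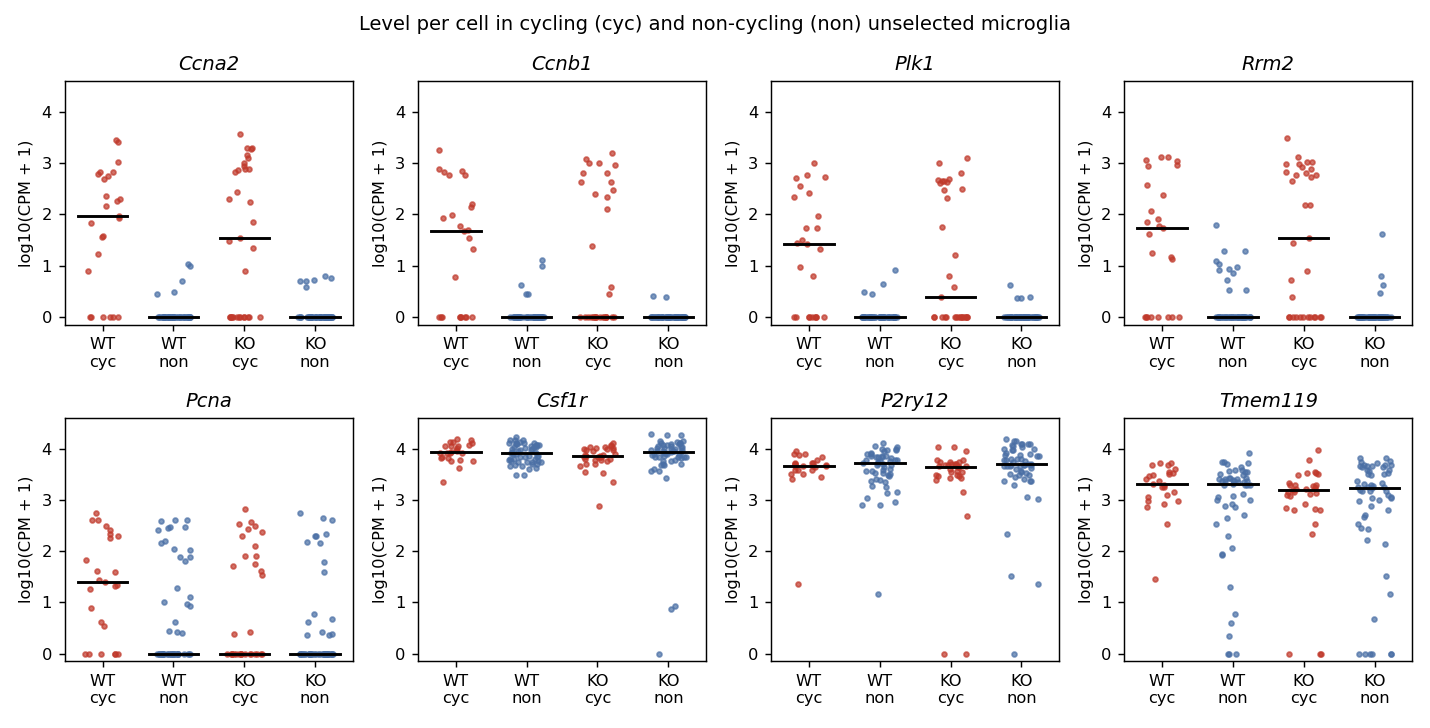
Level per cell, as log10(CPM + 1), of 8 genes in cycling (cyc) and non-cycling (non) cells of the wild-type (WT) and knockout (KO) unselected plates, with the class median as a bar. Ccna2, Ccnb1, Plk1 and Rrm2 lie at or near 0 in most non-cycling cells, Pcna spans nearly the same range in both classes, and Csf1r, P2ry12 and Tmem119 have medians at similar heights in all 4 classes.

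Tubb5, Stmn1 and H2afz differed in level, and Stmn1 and H2afz also in the share of cells with a count. Tubb5, a beta-tubulin, was found in all cycling cells, at 515, 1118 and 5138 CPM (lowest, median and highest) in the wild type and 548, 1784 and 8595 CPM in the knockout. Non-cycling cells had medians of 722 and 813 CPM and reached 2732 and 3976 CPM, so the classes overlapped widely, and the log2 was 1.11 and 1.12. Stmn1, which destabilises microtubules, was found in 92% and 97.0% of thinned cycling cells against 37.7% and 43.9% of the others, with log2 values of 2.68 and 2.49. H2afz, a replacement histone, was found in 96% and 97.0% against 67.9% and 54.4%, with 2.03 and 1.72.

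Of 22 measured condensins and mitotic chromosome proteins 15 were higher and none lower, with medians of 2.00 and 1.97. Ncapg, a condensin subunit, had log2 values of 5.41 and 6.41. H2afx, the histone marked at DNA breaks, was found in 80% and 81.8% of thinned cycling cells against 9.43% and 10.5% of the others, at 263 against 15.4 CPM and 215 against 11.6 CPM. Hmgb2, a DNA-bending protein, had 2.67 and 2.66, with medians of 97.1 and 107 CPM per cycling cell and 0 per non-cycling cell. Of 20 members of chromatin maintenance 6 were higher, among them the histone chaperone Asf1b (5.38 and 3.22). Both lists stand beside 6.68% higher and 5.85% lower of all measured genes.

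Clustered histone genes, whose S-phase messages mostly lack a poly(A) tail, were sparse in these libraries, which were primed with oligo-dT. Of 68 such genes 11 were measured, and 8 were higher and none lower, against 6.68% and 5.85% of all measured genes. The list medians were 3.00 and 2.55. Hist1h2ae was at 133 against 2.89 CPM and 143 against 5.09 CPM, and Hist1h1b, a linker histone, at 33.2 against 0.304 CPM and 38.3 against 0.112 CPM. These genes are near-identical copies of one another, so the authors' counting may have split or dropped their reads, and values of single members are uncertain.

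Among the regulators of these programmes 6 of 15 measured E2F, Myb and Foxm1 genes were higher and none lower. Among all measured genes 6.68% were higher and 5.85% lower. The list medians were 1.13 and 2.06. Foxm1, the mitotic transcription factor, was at 69.4 CPM in wild-type cycling cells against no count in non-cycling cells (at least 607-fold higher against the floor), and at 81.8 against 0.056 CPM in the knockout (log2 6.29). It was found in 6 of 25 and 8 of 33 thinned cycling cells. E2f8, a repressor made in S phase, had 5.39 and 3.54, and E2f1, the activator of S-phase genes, 1.07 and 1.17.

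The inhibitors of CDKs and genes of quiescence split. Of 14 measured members 2 were higher in both plates and none lower, against 6.68% and 5.85% of all measured genes. So few calls say little about the list. The medians were -0.06 in the wild type (0.01 with spike-in scaling) and 1.22 in the knockout. The 2 members called higher were inhibitors of CDK4 and CDK6. Cdkn2c was at 46.8 against 9.86 CPM (log2 2.14) and 100 against 5.71 CPM (log2 3.92), found in 10 of 25 and 17 of 33 thinned cycling cells against 2 of 53 and 5 of 57 others. Cdkn2d had 2.01 and 5.71, in 3 and 5 thinned cycling cells. Cdkn1a, the p21 inhibitor, lay the other way in the plates, at 65.1 against 182 CPM in the wild type (log2 -1.47) and 228 against 121 CPM in the knockout (log2 0.91). Its highest cells reached 364 and 1624 CPM in wild-type cycling and non-cycling cells and 1271 and 1737 CPM in the knockout, so the classes overlapped in both. Cdkn1b, the p27 inhibitor, lay at 10.9 CPM in both wild-type classes and had a log2 of 2.20 in the knockout, with 45.9% of the knockout cycling counts in 1 cell.

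**Figure D4:**
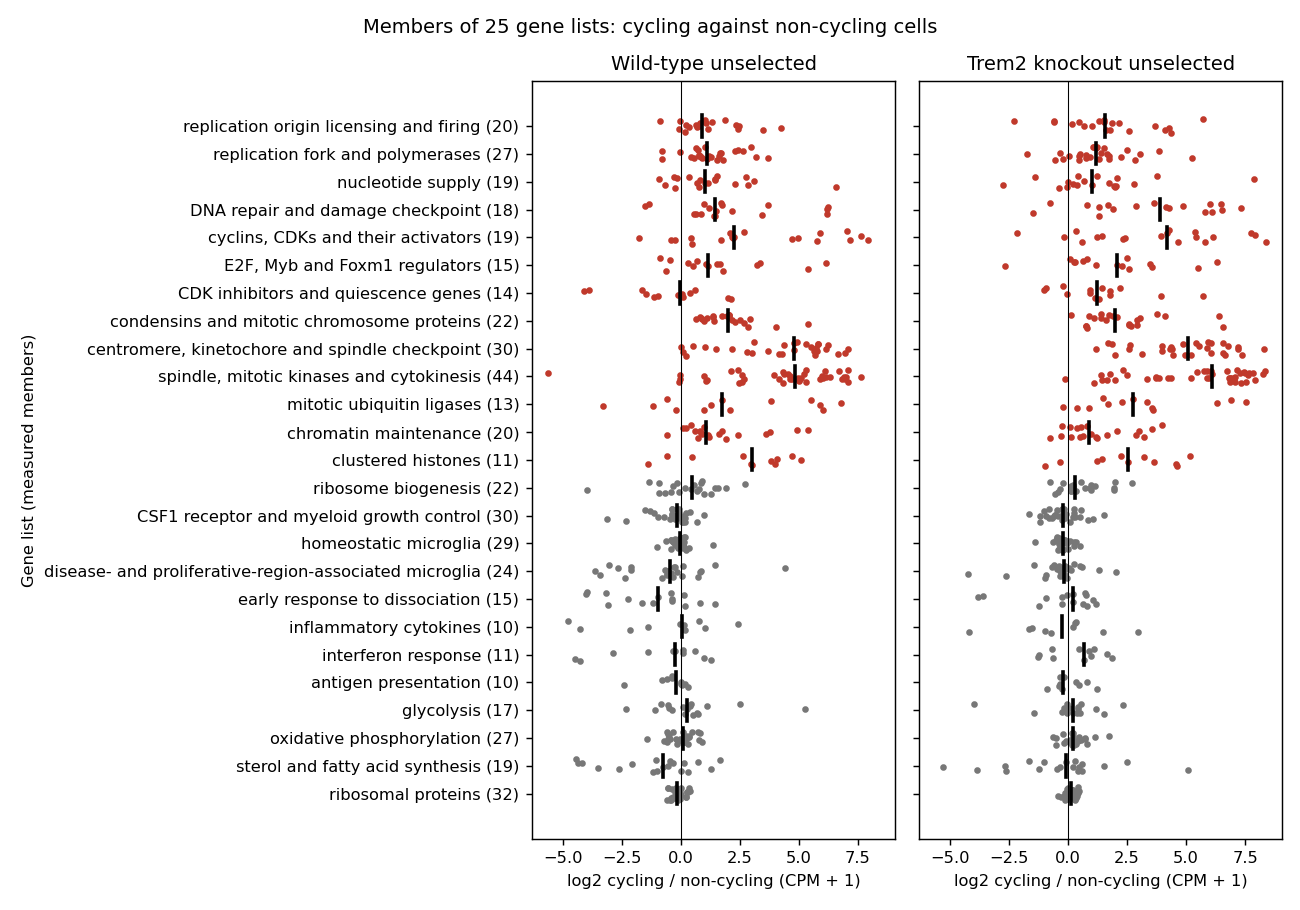
Log2 ratio of cycling over non-cycling level for every measured member of 25 gene lists in the wild-type (left) and knockout (right) plates, with list medians as bars and cell cycle lists in red. Spindle and kinetochore lists have medians between 4.78 and 6.08, replication lists lie between 0.91 and 1.58, and lists of microglial identity and metabolism straddle 0.

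Single cells combined these programmes in different proportions. After thinning, wild-type cycling cells held counts of a median of 22 of 52 replication genes (range 0 to 31) and 38 of 79 mitosis genes (1 to 62), against 6 and 5 in non-cycling cells. Knockout cycling cells held 10 (0 to 36) and 29 (3 to 58), against 3 and 4. No non-cycling cell reached the cycling median of mitosis genes in either plate. The highest held 22 in the wild type and 16 in the knockout, and 19 of 25 and 23 of 33 cycling cells lay above that. Replication genes separated the classes less, and 2 wild-type and 9 knockout non-cycling cells held at least the cycling median of them. By the rule, a cell that copies its DNA with little Mki67 and Top2a RNA counts as non-cycling. In the wild-type plate 2 cycling cells, and in the knockout 1, held no more mitosis genes than the non-cycling median.

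Combinations of cyclins showed the same spread. After thinning, Ccnb1 was found without either E-type cyclin in 9 of 25 wild-type and 12 of 33 knockout cycling cells. An E-type cyclin was found without Ccnb1 in 6 cells of each, and both were found in 7 and 2. Among non-cycling cells 8 of 53 and 2 of 57 held an E-type cyclin without Ccnb1, and none held both (exact 95% intervals up to 6.72% and 6.27% of cells with both counts at this depth). A missing count does not show that a gene was off, since single-cell libraries miss many messages.

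**Figure D5:**
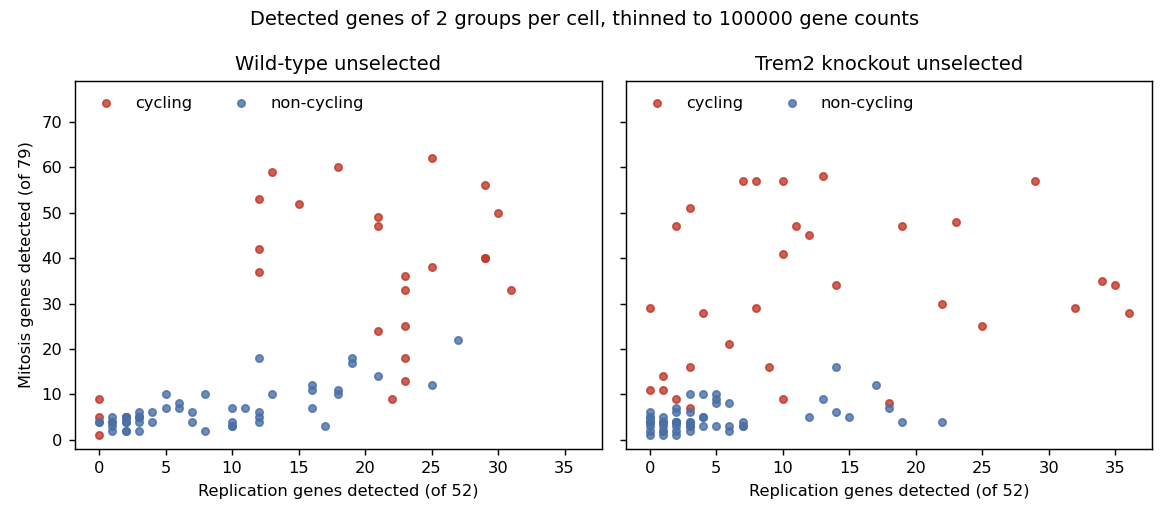
Each point is a cell thinned to 100000 gene counts, with the number of replication genes (x axis, of 52) and mitosis genes (y axis, of 79) that had a count, in the wild-type (left) and knockout (right) plates. Cycling cells reach 62 and 58 mitosis genes, some of them with few replication genes, and non-cycling cells stay at or under 22 and 16 while some hold over 20 replication genes.

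Microglia markers were high in both classes. The 9 microglia markers added up to 40881 CPM in wild-type cycling and 38800 CPM in non-cycling cells, and to 37966 and 41676 CPM in the knockout, and none of the 9 passed 2-fold. Per cell the sum ran from 15181 to 56423 CPM and from 16186 to 58392 CPM in the wild type. In the knockout it ran from 8157 to 62810 CPM in cycling cells and from 0 to 62515 CPM in non-cycling cells, so at least 1 non-cycling cell that passed the quality criteria carried none of these markers. Of the markers P2ry12 and Tmem119, another knockout non-cycling cell held only 22.1 and 3.69 CPM, and a further one 31.5 and 0 CPM.

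Of 29 measured homeostatic microglia genes none was higher or lower in both plates, against 6.68% and 5.85% of all measured genes. The list medians were -0.05 and -0.23. Csf1r, the growth factor receptor of microglia, had lowest, median and highest levels of 2261, 8448 and 15468 CPM in wild-type cycling cells and 3111, 8141 and 17086 CPM in non-cycling cells. In the knockout they were 771, 7072 and 12530 CPM against 0, 8439 and 18956 CPM. The classes overlapped over nearly the whole range, with log2 values of 0.10 and -0.24. P2ry12, the purinergic receptor that guides microglial processes, had -0.13 and -0.47, and Tmem119, a surface protein of microglia, 0.08 and -0.32. Under the alternatives the wild-type median of this list changed sign in 3 of 14.

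Trem2 was found in all 25 thinned wild-type cycling cells and in 52 of 53 non-cycling cells, at 1044 against 1150 CPM (log2 -0.14). In the plate labelled TREM2_KO it was at 285 against 196 CPM (log2 0.54), with counts in 25 of 33 and 36 of 57 thinned cells, so its RNA was lower than in the wild type in both classes but not absent.

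Among genes of activated microglia, of 24 measured members of the disease- and proliferative-region-associated list none was higher and 1 was lower in both plates, against 6.68% and 5.85% of all measured genes, a count near that background. The medians were -0.48 in the wild type and -0.17 in the knockout, the latter at 0.04 with spike-in scaling. Apoe, a lipid carrier, had medians of 5597 CPM per cycling and 10656 CPM per non-cycling cell in the wild type and of 5609 and 7414 CPM in the knockout, with log2 values of -0.79 and -0.40. Spp1, a secreted phosphoprotein, was at 160 against 1311 CPM and 1181 against 1784 CPM, but single cells held 53.9% and 55.8% of the non-cycling counts. The member called lower was Axl, a receptor used in the uptake of dying cells (-2.66 and -1.42). It was found in 2 and 5 thinned cycling cells and in 10 and 5 non-cycling cells.

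In the list of CSF1 receptor signalling and myeloid growth control 1 of 30 measured members was lower, the myeloid factor Cebpa (-2.34 and -1.65), found in 3 and 2 thinned cycling cells and in 11 and 7 non-cycling cells, and none was higher. Its medians were -0.14 and -0.23. Of 22 measured ribosome biogenesis genes 2 were higher, Nolc1 (1.59 and 2.00) and Gnl3 (2.70 and 1.96), with list medians of 0.49 and 0.27. Over all measured genes 6.68% were higher and 5.85% lower, so the counts of both lists are near that background. None of 32 ribosomal protein genes passed 2-fold in either plate.

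The other lists are given beside 6.68% higher and 5.85% lower of all measured genes. Oxidative phosphorylation (27 measured), inflammatory cytokines (10), interferon response (11) and antigen presentation (10) had none in either direction. Glycolysis had 1 of 17 in each direction, Pfkp, whose counts lay 99.4% or more in 1 cycling cell in each plate, and Pfkfb3 (-1.09 and -1.43). Sterol and fatty acid synthesis had 3 of 19 lower, Sqle, Lss and Insig1, with list medians of -0.75 and -0.09, the latter at 0.11 with spike-in scaling. Early response genes, which dissociation of tissue can induce, had 3 of 15 lower, Fos, Jund and Socs3, with medians of -0.96 and 0.20, the latter at -0.21 with classes set by Top2a alone. Fos had no count in any cycling cell, and 91.9% and 100% of its non-cycling counts lay in 1 cell of each plate.

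Beyond the cell cycle lists 104 genes met all conditions for naming among those called higher, and 101 within them did. Shcbp1, Fam64a, C330027C09Rik, Stil, Cdkn3 and Brip1 were among the former, which the naming rule did not select and which were picked after their values were seen. The smaller of their 2 log2 values was 6.07, 6.01, 5.93, 5.50, 5.32 and 4.96 in that order. Stil builds centrioles, Cdkn3 is a phosphatase of CDKs, and Brip1 is a helicase of the BRCA1 pathway.

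The genes called lower in cycling cells were of another kind. Of 482 genes 264 had over 50% of the non-cycling counts of a plate in 1 cell, and 22 met the conditions for naming, none of them in a cell cycle list. The 15 lowest were Inpp4b, Ap2a2, Irak1, Snx29, As3mt, Med22, 0610030E20Rik, Flot1, Cbr1, Ypel3, Fam48a, Osbpl11, Mtus1, Zfp90 and Cd180. Their log2 values ran from -2.98 to -1.06 in the wild type and from -2.53 to -1.14 in the knockout, smaller than those of the 15 highest genes. Over all called genes, 162 of 482 lower and 214 of 550 higher genes had a log2 size of 2 or more in both plates. For comparison, 256 of the 550 genes called higher also had over 50% of the cycling counts of a plate in 1 cell.

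Inpp4b, a phosphatase of the phosphoinositide pathway, was at 10.4 against 88.7 CPM (log2 -2.98) and 15.6 against 95.2 CPM (log2 -2.53). Its median per cell was 0 in all 4 classes, and the highest cells reached 43.2 against 994 CPM and 201 against 1267 CPM. Thinned cells with a count made up 28% against 32.1% and 18.2% against 26.3%, so the difference lay in the levels of the cells with counts more than in their number. Ap2a2, a subunit of the clathrin adaptor AP-2, was at 22.2 against 112 CPM (log2 -2.29) and 33.4 against 154 CPM (log2 -2.18). Irak1, a kinase of Toll-like receptor signalling, had -1.75 and -2.41.

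Cd180, a Toll-like receptor homologue, and Ypel3 differed in the wild-type plate also by the median cell. Cd180 had per-cell medians of 5.42 against 182 CPM in the wild type, but 4.22 against 0 CPM in the knockout, with log2 values of -1.06 and -1.61. Ypel3 had 14.9 against 85.5 CPM and 7.99 against 10.4 CPM, with -1.27 and -1.19. Its thinned cells with a count made up 52% against 79.2% in the wild type and 51.5% against 50.9% in the knockout.

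The gated plates were divided by the same rule, which gave 19 cycling of 90 wild-type cells and 26 of 76 knockout cells. Over all measured genes 317 (3.85%) were 2-fold or more higher in cycling cells of both gated plates and 358 (4.35%) lower. Of the 550 genes called higher in the unselected plates 158 (28.7%) were among the former, and of the 482 called lower 40 (8.30%) were among the latter. Of the 15 highest genes 14 passed 2-fold in both gated plates, and Rrm2 passed in the knockout alone (log2 0.77 and 5.18). Of the 15 lowest none passed in both. Of the genes called higher that met all conditions for naming, 81 of 101 members of cell cycle lists and 12 of 104 other genes passed 2-fold in both gated plates, and the difference of these shares was not tested. Gated and unselected cells of a genotype came from separate plates whose animals are not named.

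Added up over a class, markers of other cell types lay far below the microglia markers in both classes. The border-associated macrophage markers added up to 574 against 246 CPM in the wild type and 552 against 394 CPM in the knockout, nearly all of it from Mrc1, the only one of the 10 that was measured. Of the 10, 8 and 6 were at 0 in the wild-type classes and 6 and 4 in the knockout. The median level of Mrc1 per cell was 252 against 2.32 CPM in the wild type and 405 against 0 CPM in the knockout, with log2 values of 1.27 and 0.48. Red blood cell markers came to 319 against 19.3 CPM in the wild type, up to 2007 CPM in a cycling cell, and to 1.23 against 0.588 CPM in the knockout, with 1 and 2 of the 6 markers at 0 in the wild-type classes and 4 and 5 in the knockout. Lymphocyte markers (mainly Cd79b) lay between 98.8 and 178 CPM and oligodendrocyte lineage markers between 75.6 and 159 CPM in all 4 classes, with 10 and 10, and 8 and 9, of 11 lymphocyte markers at 0. Astrocyte, neural progenitor and vascular markers stayed at or under 64.3 CPM, and monocyte and neutrophil markers at or under 6.69 CPM. Neuron markers came to 44.4 CPM in knockout non-cycling cells, with 7050 CPM in the highest cell, and to 3.69 CPM or less in the other classes. The part of such RNA in the gene differences was not tested.

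Promoter windows of 300 bases, from 250 before to 50 after the gene start, were found in RefSeq for 6684 of the 8239 measured genes (8563 windows) and for 455 of the 550 genes called higher. TTTGAA was found on either strand in 12.4% of the windows of measured genes, 24.9% of those of genes called higher, and 49.4% of the 77 windows of genes with a log2 of 4 or more in both plates. Among the genes called lower it was 14.4%. Among the members of the spindle and kinetochore lists called higher it was 59.3% of 59 windows. CCAAT followed with 38.1%, 47.8%, 68.8%, 35.7% and 69.5% in the same order. Both elements together were found in 5.08%, 15.2%, 37.7%, 5.75% and 45.8%, against 6.95% of all 32851 windows in the RefSeq table, where TTTGAA was in 17.9% and CCAAT in 37.4%.

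An E2F-type element (TTTCGCGC, TTTGGCGC or TTTCCCGC on either strand) was in 3.90% of the windows of measured genes, 6.63% of those called higher and 2.67% of those called lower. Of 19 windows of replication genes called higher 3 held it, and it was in 1.84% of all windows in the table. Of the same 19 windows 31.6% held TTTGAA, 68.4% CCAAT and 5.26% both. For CCAAT this is close to the 69.5% of the spindle and kinetochore lists. Each element was counted on its own, also where matches overlapped. Such matches are letters in a window and not evidence of binding, and the difference between the shares was not tested.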

How the data were processed

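Smart-seq2 libraries of single sorted microglia were measured, and the authors deposited raw read counts per gene for 369 cells in 1 table of 23337 genes and 92 spike-in rows. Per the submitters' processing notes, Trim Galore 0.4.3, STAR 2.5.3a, Picard, HTSeq and the mm10 build were used. No source used here gives the annotation or a strand setting, and reads of overlapping, antisense or near-identical genes, among them histones and tubulins, may be split or misassigned. Column sums matched the totals in the labels for 369 cells, and no 2 columns were identical. Spike-ins held 3.56% of all counts and stayed out of every total. The table holds no mitochondrial gene rows by name, and no doublet caller was run.

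Cells were kept by the quality criteria in the labels. Counts were summed per class and plate and scaled to CPM, and 1 CPM was added before log2. Thinning drew 100000 gene counts per cell without replacement. With 1 plate per group no test was made. Intervals are exact 95% intervals and floors are 3 counts, and both cover counting error only, since reads carry no molecular identifiers. Genes named as highest and lowest were the 15 each way with the largest smaller log2 of both plates among called genes. They needed 20 CPM in the higher class, a count in 25% of its thinned cells and no cell with over 50% of its counts, in each plate. A fixed set of cyclins, CDK inhibitors and microglia genes was always given, and other members illustrate their lists. Of 775 list symbols 769 matched the table, 11 by an older symbol. The members, lists and rules were chosen with earlier results of these data known. The scripts were tested on simulated data. Alternatives covered scaling (spike-ins, TMM from edgeR 4.0.16, size factors from DESeq2 1.42.0, both used for scaling alone), the class boundary, filters, the added CPM, thinning and matching on detected genes. Python 3.11.15 with numpy 2.4.6, pandas 2.3.3, scipy 1.17.1 and matplotlib 3.10.9, and R 4.3.3, were used. Promoter windows are RefSeq's on GRCm38.p6. Values of some list members are not reported here.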

Additional observations from a re-analysis of the deposited data

Results flagged for a closer look

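Only the fixed set of genes that was always given and the lists other than cell types were searched here. Among them, 2 lists and 2 genes had log2 values of opposite signs in the 2 unselected plates that differed by 1 or more. Over all measured genes, 348 were 2-fold or more higher in the wild type and lower in the knockout. For 321 genes it was the reverse. Smaller changes of sign, such as those of Trem2, Csf1r, Tmem119 and the interferon response list, are not counted here. In some of the 2 lists and 2 genes the wild-type value was near 0. The difference between plates was not tested in any of them, and each group is 1 plate. The median log2 of cycling over non-cycling cells for the CDK inhibitors and quiescence genes was -0.056 in the wild type and 1.22 in the knockout. For the early response genes it was -0.96 in the wild type and 0.20 in the knockout. Cdkn1a had -1.47 and 0.91, and Cdkn1b had -0.00271 and 2.20. Wild-type Cdkn1b kept its sign in 10 of 14 alternatives, with values from -0.85 to 1.24, so its wild-type direction is not set. The wild-type median of the CDK inhibitors ran from -0.53 to 0.01, and the knockout median of the early response genes from -0.21 to 0.54.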

How the results depend on the processing

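The 15 genes named as highest passed 2-fold in both plates under all 14 alternatives that recompute levels or classes, and 7 of the 15 named as lowest did. The counts of called genes moved more. With a filter at 20 CPM 287 genes were higher, 171 lower, and 96 of the higher also passed in the gated plates, against 550, 482 and 158. Requiring a count in 25% of thinned cells left 229 higher, 22 lower and 102 in the gated plates. With no filter 756 genes were lower, and with the highest cell of each class left out per gene 767 were. Leaving out genes with over 50% of their counts in 1 cell, an alternative chosen after seeing the data, left 294 higher and 218 lower. Matching non-cycling cells on detected genes gave 725 higher and 431 lower, at medians of 3696 against 3583 detected genes in the wild type and 2816 against 2346 in the knockout. Spike-in scaling gave 647 and 402 and moved the median of all genes to 0.06 and 0.23. The share of cycling cells was 48.7% in the wild type when any count of either gene sufficed, and 26.7% in the knockout by Top2a alone. Of 50 list medians 39 kept their direction under all 14 alternatives. Csf1r and Tmem119 in the wild type came to -0.03 and -0.01 without the cells over 2 times the plate median of detected genes. The causes were not tested. No paired analysis was possible because each group is 1 plate, and for the same reason no replicate could be left out.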
